A study of Mus musculus with 8 samples.

Results

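The insulin-like growth factor genes examined here are 10 genes in 3 roles: the ligands Igf1 and Igf2, the receptors Igf1r and Igf2r, and the binding protein genes Igfbp2 to Igfbp7. They were taken by symbol, and all 10 are among the 52139 genes listed in both deposited tables. The RNA sequencing was made in 8 libraries labelled as wild type C2C12, an immortalised mouse myoblast line, which was given either ginseng berries concentrate (GBC), ginsenoside Re (a saponin of ginseng) or the solvent DMSO. One table, called the pair here, holds 1 DMSO and 1 GBC library. The other, called the Re table, holds 3 DMSO and 3 Re libraries. Doses and treatment times are not given in the labels, and nothing in them says whether the 3 libraries of a group came from separate cultures, so p-values measure the spread between these libraries, which may be technical.

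IGF-1 and IGF-2 are small secreted hormones that act through the IGF-1 receptor, a tyrosine kinase that signals to PI3K, Akt and mTORC1 and to the MAP kinase pathway. The IGF-2 receptor, which also carries lysosomal enzymes tagged with mannose 6-phosphate, takes IGF-2 up for degradation. Binding proteins hold the ligands outside the cell and limit or prolong their action. In muscle the pathway is known for supporting growth, survival and differentiation.

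Values are TPM, the transcripts of a gene per 1000000 transcripts, which are scaled by gene length, so levels of different genes can be set side by side within a library. Every difference below is one of log2(TPM + 1), a scale that understates the change of low genes. TPM keeps no read depth, so no counting interval can be given. The listed TPM summed to 403442 in the DMSO and 479938 in the GBC library, and to between 642180 and 743269 in the Re table. In bulk RNA fewer cells of a type and less RNA per cell cannot be told apart.

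The libraries of the pair went against their myoblast label. Of 10 myoblast markers 7 were listed at 0 in both, among them Myod1 and Myf5, the transcription factors that set muscle fate, and Cdh15 (M-cadherin). The summed level of the 10 markers was 1.98 TPM in the DMSO and 1.67 TPM in the GBC library, against 202 to 222 TPM in the Re table. Desmin (Des), the intermediate filament of muscle, was at 1.92 and 1.59 TPM in the pair and between 115 and 127 TPM in the Re table. Thy1, a surface protein of fibroblasts and other mesenchymal cells, was at 23.8 and 22.1 TPM in the pair, while in the Re table it was listed at 0 in 5 libraries and at 0.08 TPM in Re replicate 3. The summed level of 12 mesenchymal markers overlapped between the tables for the control cells, at 298 TPM in the DMSO library of the pair and 257 to 324 TPM in the DMSO libraries of the Re table. Its members did not go one way between these controls. Higher in the pair, against the mean of the Re table, were Pdgfra at 5.85 against 2.27 TPM and Cd34 at 51.5 against 3.36 TPM. So were Ly6a at 51.5 against 13.2 TPM, Prrx1 at 31.8 against 17.4 TPM and Twist1 at 8.72 against 3.67 TPM, beside Thy1. Lower in the pair were Pdgfrb at 1.78 against 14.4 TPM, Col1a1 at 10.9 against 16.5 TPM and Col1a2 at 112 against 219 TPM. Dcn was also lower, at 0.19 against 0.437 TPM, and Lum and Tcf21 were at 0.04 TPM or less. Markers of differentiated muscle summed to 0.6 TPM with DMSO and 0.23 TPM with GBC, and to 25.6 to 35.6 TPM in the Re table. Acta1 held 22.99 to 34.5 TPM of the latter, while Myog, the factor that starts differentiation, was at 0.3 TPM or less. Of other cell types, endothelial markers summed to at most 1.13 TPM and macrophage markers to at most 3.2 TPM in any library. Epithelial markers summed to 2.08 and 2.3 TPM in the pair and 21.2 to 28.7 TPM in the Re table, where Krt14 alone was at 21.1 to 28.5 TPM and Epcam was listed at 0. The 2 tables are described apart, and levels set across them, which were normalised separately, describe the libraries so labelled.

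Both ligand genes were near the bottom of the range in every library. Igf1 was at 0.17, 0 and 0.37 TPM in the DMSO libraries 1 to 3 of the Re table, at 0.19, 0.07 and 0 TPM in the Re libraries, and in the pair at 0.09 TPM with DMSO and 0.11 TPM with GBC. Igf2 was at 0.66, 0.05 and 0.15 TPM in DMSO, at 0, 0 and 0.17 TPM in Re, and at 0 and 0.07 TPM in the pair. The highest value of either ligand was thus the 0.66 TPM of Igf2 in DMSO replicate 1, and the groups overlapped for both genes. With Igfbp3 they are the 3 of the 10 genes whose mean over the Re table lay under 1 TPM, so they were not tested. The neighbours of Igf2 in the genome were not all low. H19, the imprinted noncoding RNA gene that lies close to Igf2, was at 11.7, 15.7 and 17.98 TPM in DMSO and at 9.85, 19.6 and 11.4 TPM in Re, and was listed at 0 in both libraries of the pair. Its difference for Re was -0.18, and it was the only one of 5 imprinted neighbours with a mean high enough to be tested. Ins2, the insulin gene next to Igf2 in the RefSeq annotation of GRCm38.p6, was listed at 0 in every library but GBC, where it was at 0.34 TPM.

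The receptor genes were expressed in all 8 libraries. Igf1r was at 6.64, 5.18 and 6.57 TPM in DMSO and at 6.02, 6.64 and 8.07 TPM in Re, and in the pair at 2.91 TPM with DMSO and 5.38 TPM with GBC. Igf2r was at 5.34, 4.07 and 4.74 TPM in DMSO and at 4.86, 4.02 and 6.16 TPM in Re, and at 10.2 and 17.7 TPM in the pair. The order of the receptors was therefore opposite in the tables. Igf1r stood above Igf2r in each of the 6 libraries of the Re table, at 1.24 to 1.65 times its level, although the ranges over libraries overlapped. In the pair Igf1r was at 0.287 times the level of Igf2r in DMSO and 0.304 times in GBC. This ratio is taken within a library, so it does not move when a library is rescaled. Airn, a noncoding RNA transcribed antisense to Igf2r from within the gene, was at 1.79 and 4.78 TPM in the pair and at most 0.85 TPM in the Re table. Whether the reads were counted by strand is not given in the sources used here, so reads of Airn and Igf2r cannot be told apart where they overlap. The insulin receptor gene Insr was close to Igf1r in the Re table, at 5.50, 5.24 and 6.05 TPM in DMSO and 4.59, 6 and 4.45 TPM in Re. In the pair it was at 1.54 and 2.41 TPM.

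Binding proteins held most of the mRNA of the 10 genes in every library, and which of them did so differed between the tables. Igfbp7, whose product binds insulin-like growth factors with low affinity and is a matrix and vessel protein, was the most abundant in the Re table. It was at 182, 155 and 190.2 TPM in DMSO and at 168, 191 and 189 TPM in Re, but at 11.7 and 13.8 TPM in the pair. Igfbp6, whose product prefers IGF-2, was the most abundant of the 10 in the pair, at 159 TPM with DMSO and 145 TPM with GBC. In the Re table it was at 92.0, 75.7 and 84.8 TPM in DMSO and at 90.4, 100.9 and 88.2 TPM in Re. So Igfbp7 was above Igfbp6 by 1.86 to 2.24 times in all 6 libraries of the Re table, and at 0.0734 and 0.0954 times its level in the pair.

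Igfbp2, which encodes a secreted binding protein of fetal and adult serum, was at 20.3, 15.96 and 15.9 TPM in DMSO and at 20.2, 18.04 and 15.01 TPM in Re. It was listed at 0 in both libraries of the pair. Igfbp5, which encodes a binding protein that rises when myoblasts differentiate, was at 1.89, 2.31 and 1.79 TPM in DMSO and at 1.6, 2.03 and 1.66 TPM in Re, and was also listed at 0 in both libraries of the pair. Igfbp4, whose product is cut by the protease PAPP-A, was at 7.29, 6.86 and 10.1 TPM in DMSO, at 7.68, 11.3 and 8.43 TPM in Re and at 21.9 and 27.5 TPM in the pair. Igfbp3, which encodes the main carrier of the hormones in blood, was listed at 0 in 7 libraries and at 0.06 TPM in Re replicate 3. Igfbp1, its neighbour in the RefSeq annotation, had a mean of 0.0433 TPM in the DMSO libraries of the Re table and was listed at 0 in the pair and in Re.

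**Figure D1:**
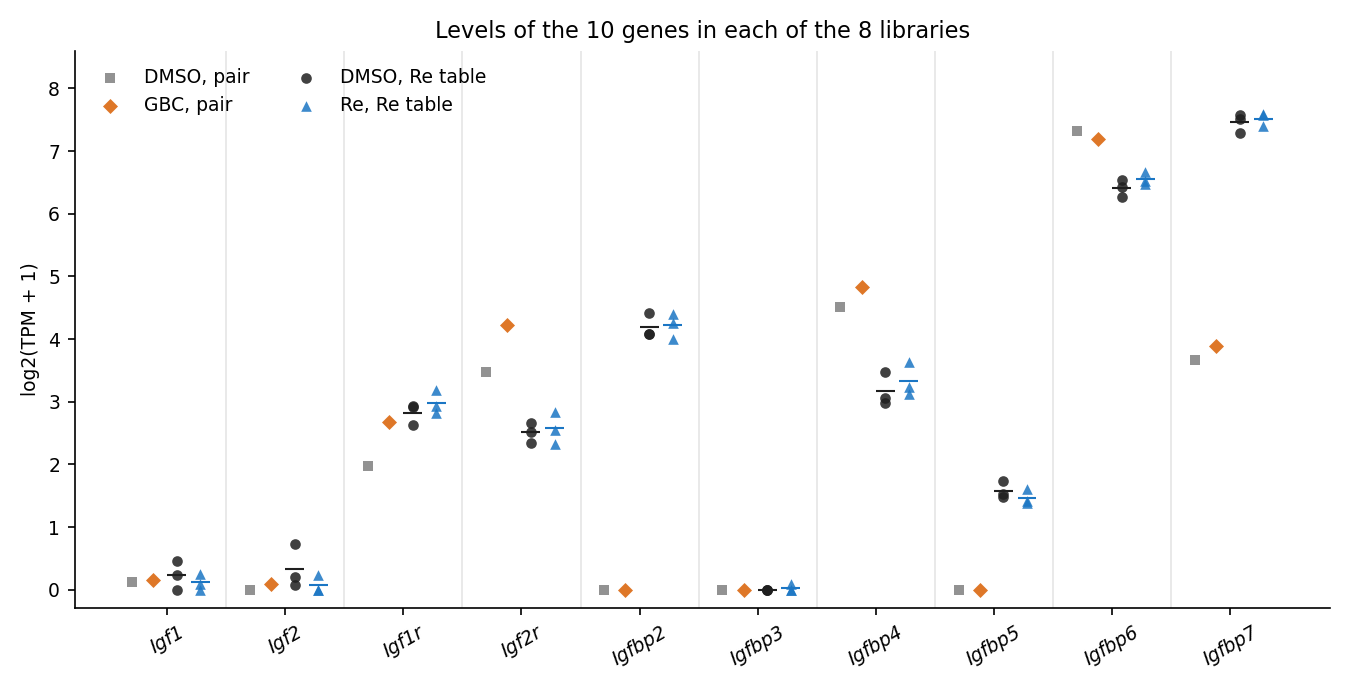
Level of each of the 10 genes as log2(TPM + 1), with 1 point per library: grey squares and orange diamonds for DMSO and GBC in the pair, black circles and blue triangles for the DMSO and Re libraries of the Re table, and short lines at the means of 3. Black and blue points overlap for every gene, while Igfbp2 and Igfbp5 are listed at 0 in the pair and Igfbp7 is at 11.7 and 13.8 TPM there against 155 to 191 TPM in the Re table.

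In the Re table the order from high to low was Igfbp7, Igfbp6, Igfbp2, Igfbp4, Igf1r, Igf2r and Igfbp5 in each of the 6 libraries. The ranges of Igfbp4 and Igf1r overlapped, as did those of Igf1r and Igf2r, while other neighbours in that order did not overlap. In the pair the order was Igfbp6, Igfbp4, Igfbp7, Igf2r and Igf1r in DMSO, and Igf2r stood above Igfbp7 in GBC. The summed TPM of the 6 binding protein genes was 192 and 186 in the pair and 256 to 323 in the Re table, and that of the 2 ligand genes was 0.83 TPM or less in any library. Per 1000000 of listed TPM, the binding protein sum was 477 and 389 in the pair and 398 to 457 in the Re table, so on that scale the pair lay above that range with DMSO and below it with GBC.

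Shares within that sum do not depend on the scale of a library. Igfbp7 made up 61.1 ± 1.51% of it in DMSO and 59.97 ± 2.19% in Re (SD, n = 3), but in the pair 6.06% with DMSO and 7.42% with GBC. Igfbp6 made up 29.3 ± 1.19% in DMSO and 30.6 ± 1.22% in Re, and 82.6% and 77.8% in the pair. For Igfbp4 the shares were 2.81 ± 0.485% and 2.99 ± 0.455% in the Re table and 11.4% and 14.8% in the pair. Igfbp2 made up 6.07 ± 0.742% in DMSO and 5.85 ± 1.04% in Re. DMSO and Re libraries overlapped in the shares of Igfbp2, Igfbp4, Igfbp5, Igfbp6 and Igfbp7.

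**Figure D2:**
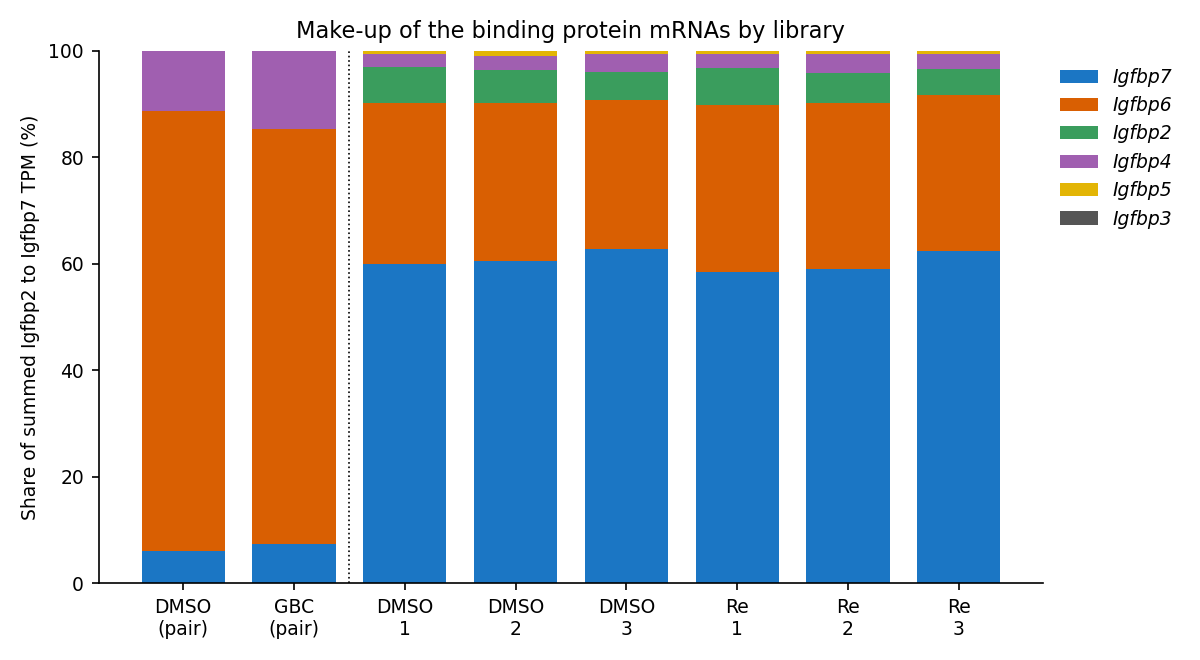
Share of each binding protein gene in the summed TPM of Igfbp2 to Igfbp7, in percent, with 1 bar per library and a dotted line between the pair and the Re table. Igfbp7 takes 58.4% to 62.8% in each library of the Re table, and Igfbp6 takes 82.6% and 77.8% in the pair.

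The promoters of 4 binding protein genes are shown for their sequence context: Igfbp2, Igfbp5, Igfbp6 and Igfbp7. Igfbp2 and Igfbp5 are listed at 0 in the pair. Of the 10 genes, Igfbp6 is the most abundant in the pair and Igfbp7 in the Re table. RefSeq sequences of GRCm38.p6 were matched for all 10 genes, with 14 start sites, of which Igf2 has 4 and Igfbp2 has 2. Each window runs from 250 bases before to 50 bases after the start, for Igfbp2 the first start listed. Capitals mark the letters CANNTG, the core of the E-box that MyoD and other helix-loop-helix factors read, which is the same on both strands. The windows are chr1:72824230-72824529 on the + strand for Igfbp2, chr1:72874816-72875115 on the - strand for Igfbp5, chr15:102143936-102144235 on the + strand for Igfbp6 and chr5:77407996-77408295 on the - strand for Igfbp7.
Igfbp2: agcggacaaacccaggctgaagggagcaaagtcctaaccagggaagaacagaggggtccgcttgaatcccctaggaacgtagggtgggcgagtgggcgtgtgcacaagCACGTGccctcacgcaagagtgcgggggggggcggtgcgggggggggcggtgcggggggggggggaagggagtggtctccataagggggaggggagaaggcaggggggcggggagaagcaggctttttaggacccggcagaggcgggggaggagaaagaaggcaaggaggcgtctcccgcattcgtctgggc
Igfbp5: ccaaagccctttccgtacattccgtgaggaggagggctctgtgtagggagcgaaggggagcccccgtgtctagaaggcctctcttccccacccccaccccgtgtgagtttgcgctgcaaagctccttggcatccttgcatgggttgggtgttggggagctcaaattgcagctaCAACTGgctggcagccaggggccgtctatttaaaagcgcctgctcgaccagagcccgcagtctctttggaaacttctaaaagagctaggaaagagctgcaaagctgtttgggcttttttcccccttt
Igfbp6: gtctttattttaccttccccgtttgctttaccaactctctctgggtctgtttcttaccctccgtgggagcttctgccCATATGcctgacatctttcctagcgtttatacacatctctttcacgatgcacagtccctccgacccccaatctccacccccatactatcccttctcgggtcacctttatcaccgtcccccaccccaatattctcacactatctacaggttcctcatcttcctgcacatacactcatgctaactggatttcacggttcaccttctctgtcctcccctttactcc
Igfbp7: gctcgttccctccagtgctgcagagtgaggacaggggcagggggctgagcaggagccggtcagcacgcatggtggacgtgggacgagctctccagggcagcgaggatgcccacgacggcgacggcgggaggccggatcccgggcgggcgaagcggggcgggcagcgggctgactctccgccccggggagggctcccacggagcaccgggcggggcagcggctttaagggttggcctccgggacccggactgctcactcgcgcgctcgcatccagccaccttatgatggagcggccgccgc
The windows of Igfbp2, Igfbp5 and Igfbp6 hold 1 match of CANNTG each and that of Igfbp7 holds 0, where 72.3% of the 32851 windows of that length hold it. The letters CAGCTG, which overlap with CANNTG, are in none of these 4 windows and in 16.3% of all. The GC box letters GGGCGG, on either strand, occur 4 times in the window of Igfbp7, 3 times in that of Igfbp2 and in neither of the others, against 35.7% of all windows with a match. GC content was 67.0% for Igfbp2, 56.3% for Igfbp5, 49.7% for Igfbp6 and 73.3% for Igfbp7, with a median of 52.7% over all windows. The window of the second Igfbp2 start, not shown, differs: it holds 2 matches of CANNTG and 0 of GGGCGG, with a GC content of 57.3%. Igfbp2 and Igfbp5 are adjacent protein-coding genes on opposite strands in the RefSeq annotation. These matches are descriptions of letters, not of bound sites.

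The levels in the DMSO libraries of the 2 tables were also set against those of all genes. Over the 9374 genes at 5 TPM or more in either control the median difference was -1.30, pair minus Re table, and -0.63 after both were scaled to equal sums of listed TPM. Igfbp7 was lower in the pair by far more than that, with a difference of -3.80, and -3.10 after equal sums. Of 9151 genes at 5 TPM or more in the DMSO libraries of the Re table, 202 (2.21%) were lower in the pair by at least as much. Igfbp6 differed by 0.91 and Igfbp4 by 1.35 in the other direction, or by 1.68 and 2.13 after equal sums. Of 6013 genes at 5 TPM or more in the DMSO library of the pair, 278 (4.62%) were higher by at least as much as Igfbp6 and 218 (3.63%) as Igfbp4. Igf2r differed by 0.97, also above the median of all genes, and Igf1r by -0.86, nearer to it. Of 5070 genes at or above the lowest Igfbp2 level in all 6 libraries of the Re table, 20 (0.394%) were listed at 0 in both libraries of the pair. For the lowest Igfbp5 level these were 161 of 10541 genes (1.53%). The low myoblast markers of the pair move with these differences, and their part in them was not tested.

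**Figure D3:**
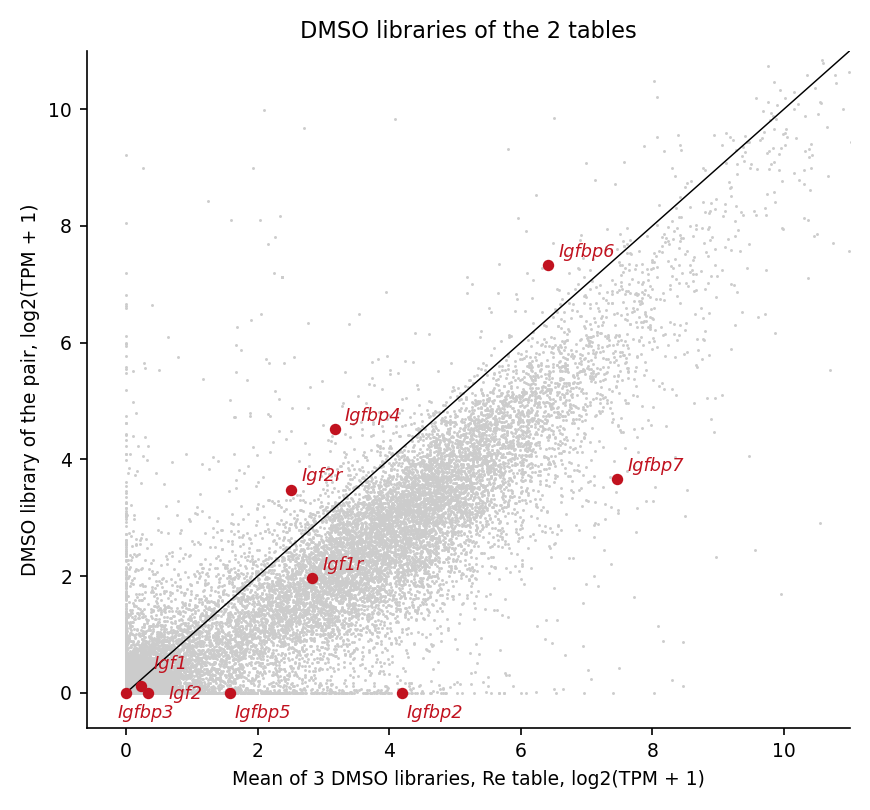
Level in the DMSO library of the pair against the mean of the 3 DMSO libraries of the Re table, both as log2(TPM + 1), for genes listed above 0 in either (grey, axes end at 11) and the 10 genes (red), with a line of equal levels. Igfbp4, Igfbp6 and Igf2r lie above the line, and Igfbp7, Igf1r, Igfbp2 and Igfbp5 lie below it.

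Igfbp2 had the widest range of the 10 genes over the 8 libraries, 4.41 on the log2 scale. The 5 genes whose profile was closest to it, by the root mean square difference of log2(TPM + 1) after centring each gene on its mean over the 8 libraries, were Rbpms2 (0.105), Angpt1 (0.126), Cdh15 (0.136), Pkp2 (0.138) and Npepl1 (0.144), among 9008 genes. Cdh15 is one of the myoblast markers that are listed at 0 in the pair, and Angpt1 encodes the vessel growth factor angiopoietin 1. All 5 were at 0.19 TPM or less in the pair and at 12.8 TPM or more in every library of the Re table, so the likeness rests on the step between the tables. Within the 6 libraries of the Re table Igfbp4 had the widest range of the genes at 5 TPM or more, 0.65. Glt8d2 (0.0594), Phka1 (0.0807), Parg (0.0823), Gtpbp2 (0.0858) and Rb1 (0.0896) had the closest profiles among 9268 genes.

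The comparison of Re with DMSO asks whether the saponin changes these genes in the cells of the Re table. No gene of the family passed the test: 0 of the 7 tested had an adjusted p under 0.05 in limma, as did 0% of all 11967 genes tested, and the smallest adjusted p among the 7 was 0.687, for Igfbp6. At an unadjusted p under 0.05 there were 0 of the 7 and 745 of all genes (6.23%), and limma without a variance trend or with robust variances also called 0 of the 7. In none of the 7 did the 3 Re values lie all above or all below the 3 DMSO values, which was the case in 15.0% of all genes, 13.7% above and 1.27% below.

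The mean of Igfbp6 went from 84.2 ± 8.14 TPM with DMSO to 93.1 ± 6.82 TPM with Re (SD, n = 3). Its difference was 0.15, and limma's 95% confidence interval ran from -0.09 to 0.38. Igfbp7 had means of 175.6 ± 18.4 and 182.5 ± 12.5 TPM, and differed by 0.06 (interval -0.18 to 0.30). For Igfbp2 the means were 17.4 ± 2.54 and 17.7 ± 2.59 TPM, and differed by 0.03 (interval -0.31 to 0.36). In each of these 3 genes the lowest Re library lay below the highest DMSO library. Igfbp4 had means of 8.10 ± 1.78 and 9.15 ± 1.93 TPM, and differed by 0.16 (interval -0.27 to 0.58). Igfbp5 was at 1.997 ± 0.276 and 1.76 ± 0.233 TPM, and its difference of -0.12 (interval -0.51 to 0.27) was the only one below 0 among the 7 as deposited. Among the receptors, Igf1r had means of 6.13 ± 0.823 and 6.91 ± 1.05 TPM, and differed by 0.15 (interval -0.20 to 0.49). Igf2r had means of 4.72 ± 0.635 and 5.01 ± 1.08 TPM, and differed by 0.06 (interval -0.33 to 0.46).

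As deposited, 6 of these genes were thus on the higher side and 1 on the lower side, where 77.5% of all genes were higher and their median difference was 0.105. After median-of-ratios scaling, which brings that median to -0.001, 3 of the 7 were higher and 4 lower, since Igf2r, Igfbp2 and Igfbp7 changed side, and without DMSO replicate 2 the split was also 3 and 4. Relative to the median of all genes as deposited the 7 differences ran from -0.22 for Igfbp5 to 0.05 for Igfbp4. The intervals do not show that the genes are equal in the 2 groups: at their ends they allow a rise of 0.58 for Igfbp4 and a fall of -0.51 for Igfbp5.

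**Figure D4:**
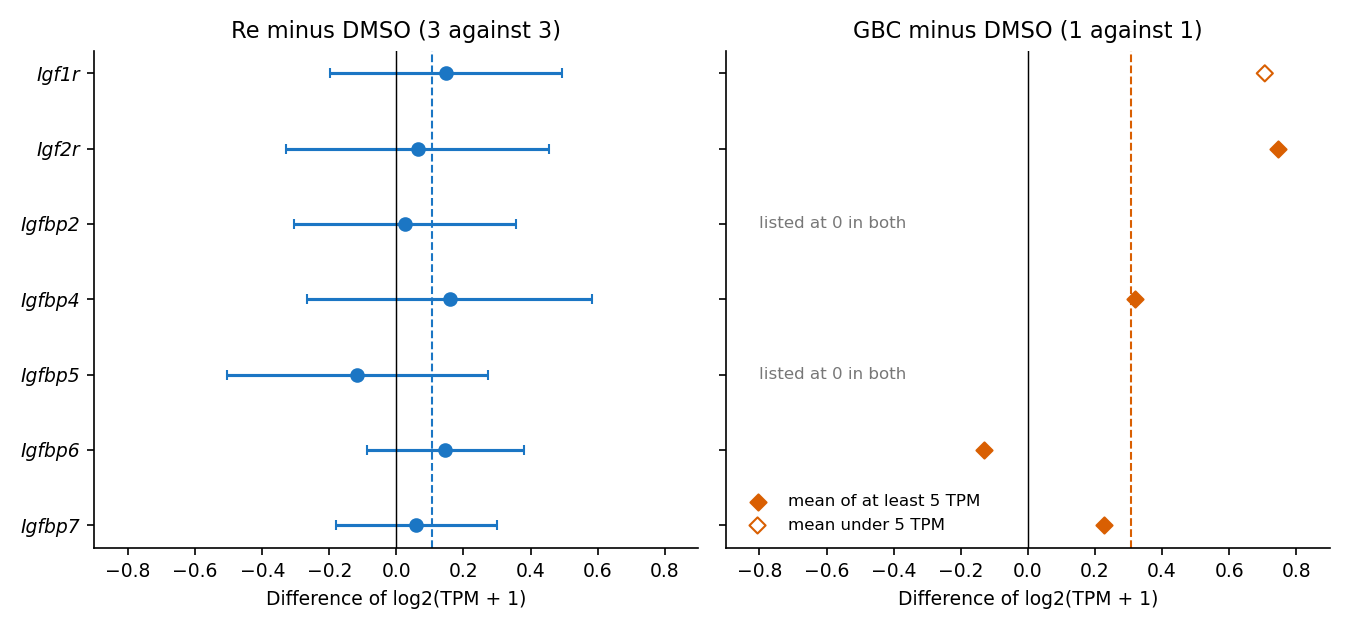
Differences of log2(TPM + 1) for the 7 genes that average 1 TPM or more in the Re table: at left Re minus DMSO with 95% confidence intervals from limma, at right GBC minus DMSO from 1 library each, with no error. Dashed lines mark the median of all genes, 0.105 and 0.307, and every interval at left crosses 0.

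The comparison of GBC with DMSO asks the same of the concentrate, with 1 library per group, so there is no replicate check and no test. None of the 10 genes differed by 1 or more on the log2 scale. Of the 4 that average 5 TPM or more there, 0 passed that size, where 5.21% of 6639 genes did, 4.97% higher and 0.241% lower. Igf2r had the largest difference, 10.2 TPM with DMSO and 17.7 TPM with GBC, or 0.75, and 12.2% of the 6639 genes were further up. Igf1r, under 5 TPM in the mean, was at 2.91 and 5.38 TPM, a difference of 0.71. Both receptors thus stood higher in the GBC library, and after equal sums of listed TPM the differences were 0.53 for Igf2r and 0.57 for Igf1r. After median-of-ratios scaling they were 0.39 and 0.40. The summed level of the 12 mesenchymal markers was 298 TPM in the DMSO and 481 TPM in the GBC library, and its part in these differences was not tested. Most of that gap lay in the collagen genes Col1a2, at 112 and 229 TPM, and Col1a1, at 10.9 and 46.6 TPM, while Thy1 and Cd34 were lower in GBC. After each of the 3 scalings 4 of the 8 markers at 5 TPM or more were higher and 4 lower.

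Igfbp4 was at 21.9 and 27.5 TPM, a difference of 0.32, close to the median of all genes of 0.307. Igfbp7 was at 11.7 and 13.8 TPM, a difference of 0.23. Igfbp6, at 159 and 145 TPM, was the only one of the 4 that was lower in the GBC library, with a difference of -0.13, and 96.0% of the 6639 genes had a higher difference. As deposited, 3 of the 4 were higher, where 88.9% of all genes were, but after median-of-ratios scaling only Igf2r was higher, at 0.39, with Igfbp4 at -0.05, Igfbp7 at -0.13 and Igfbp6 at -0.52. Igf2r stayed above 0 and Igfbp6 below 0 under each of the 3 scalings tried. As a share of the binding protein sum Igfbp6 went from 82.6% to 77.8%, while the shares of Igfbp4 and Igfbp7 were larger in GBC, as given above.

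The other genes of the pathway were taken from 7 lists by role, 72 genes in all. In Re against DMSO 0 of their 53 tested genes passed limma's threshold, 41 were higher as deposited, where 77.5% of all genes were, and 1 had an unadjusted p under 0.05, where 6.23% of all genes did. That gene was Ctsl, a lysosomal protease, at 239, 218 and 229 TPM with DMSO and 252, 278 and 291 TPM with Re, a difference of 0.25 with an adjusted p of 0.687 in limma. The groups did not overlap in 6 of the 53 genes, all higher, against 13.7% of all genes. Ctsl is one of them, and another is M6pr, the smaller mannose 6-phosphate receptor, at 65.01, 52.1 and 60.2 TPM in DMSO and 65.2, 65.9 and 67.9 TPM in Re. Of the related ligands, receptors and binding proteins only M6pr and Insr could be tested, and they differed by 0.17 and -0.14. In lysosomal enzyme sorting, the other task of the IGF-2 receptor, 11 of 12 genes were higher with a median of 0.133, against 77.5% and 0.105 for all genes. After median-of-ratios scaling 8 of 12 were higher with a median of 0.019, against 49.7% and -0.001. Among these, Ctsb, another lysosomal protease, differed by 0.18 as deposited and Vps35, of the retromer that recycles the receptor, by 0.12. Both had groups that did not overlap as deposited. After median-of-ratios scaling Ctsb differed by 0.065, Vps35 by 0.010, Ctsl by 0.14 and M6pr by 0.056.

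Of the proteases that cut binding proteins and their inhibitors, 8 of 10 were tested, and 5 were higher and 3 lower with a median of 0.020, or 1 and 7 after median-of-ratios scaling. Htra1, a serine protease, was at 52.8, 44.5 and 53.5 TPM with DMSO and 51.5, 63.9 and 68.4 TPM with Re, a difference of 0.27 whose groups overlapped. It was at 0.67 and 1.46 TPM in the pair. Adam12, a metalloprotease that cuts Igfbp3 and Igfbp5 products, differed by -0.14. The metalloprotease genes Adam9 and Mmp2 differed by 0.04 and 0.05. Pappa, the protease of Igfbp4 protein, had means of 1.19 and 1.16 TPM in DMSO and Re.

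Receptor substrates and adaptors had 5 of 7 tested genes higher with a median of 0.036, and 2 of 7 higher after median-of-ratios scaling. Irs1 and Irs2, the docking proteins of the receptor, differed by 0.01 and 0.04, Sos1 by 0.14 and Grb2 by -0.28. Among PI3K, Akt, mTORC1 and FoxO genes 17 of 20 were higher with a median of 0.114, against the same 77.5% and 0.105 for all genes, and 12 of 20 after that scaling with a median of 0.010. Pik3ca, a catalytic subunit of PI3K, differed by 0.32 as deposited. Eif4ebp1, a translation repressor that mTORC1 inactivates, differed by 0.20 as deposited with groups that did not overlap. After median-of-ratios scaling these 2 genes differed by 0.21 and 0.088. Rptor, which encodes the raptor subunit of mTORC1, differed by 0.11.

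Igf2bp1 and Igf2bp2 encode proteins that bind Igf2 and other mRNAs, and of the 3 tested genes of that list 2 were higher, with a median of 0.162. Igf2bp1 was at 0.79, 1.57 and 2.89 TPM in DMSO and at 2.57, 3.03 and 2.98 TPM in Re, which differed by 0.56 (interval -0.07 to 1.19). DMSO replicates 1 and 2 were below all Re libraries, and DMSO replicate 3 lay within the Re range. Igf2bp2 differed by 0.16. Igf2bp3, at 0.91 TPM or less in the Re table and at 5.26 and 9.01 TPM in the pair, was not tested.

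In the pair, 1 of 36 genes of these lists at a mean of at least 5 TPM passed the size of 1, where 5.21% of all genes did. It was Rptor, at 3.93 TPM with DMSO and 10.02 TPM with GBC. It differed by 1.16, by 1.03 after equal sums of listed TPM and by 1.08 with mitochondrially encoded genes left out and equal sums. After median-of-ratios scaling it differed by 0.83, under that size. Receptor substrates and adaptors had 4 of 5 genes higher and a median of 0.763, against 0.307 for all genes, or 0.397 against -0.057 after that scaling. Irs2 was at 5.34 and 10.03 TPM and Irs1 at 3.91 and 7.48 TPM, differences of 0.80 and 0.79. PI3K, Akt, mTORC1 and FoxO genes had 14 of 14 higher with a median of 0.495, where 88.9% of all genes were higher. After that scaling 9 of 14 were higher with a median of 0.157, against -0.057 for all genes. Proteases and their inhibitors had 3 of 3 higher with a median of 0.426. Genes around Igf2 mRNA binding had 4 of 4 higher with a median of 0.437. Both counts were the same after that scaling, with medians of 0.060 and 0.080. Lysosomal sorting genes had 8 of 9 higher with a median of 0.196. After scaling 2 of 9 were higher, and their list median was -0.183 against -0.057 for all genes. The 2 higher ones were Vps35 at 0.18 and Gga1 at 0.10, while Ctsl and Ctsb were both at -0.18. Grb10, an imprinted adaptor that restrains the receptor, was chosen after its values were seen. It was at 48.97 and 71.4 TPM in the pair and at 0.62 TPM or less in each library of the Re table.

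**Figure D5:**
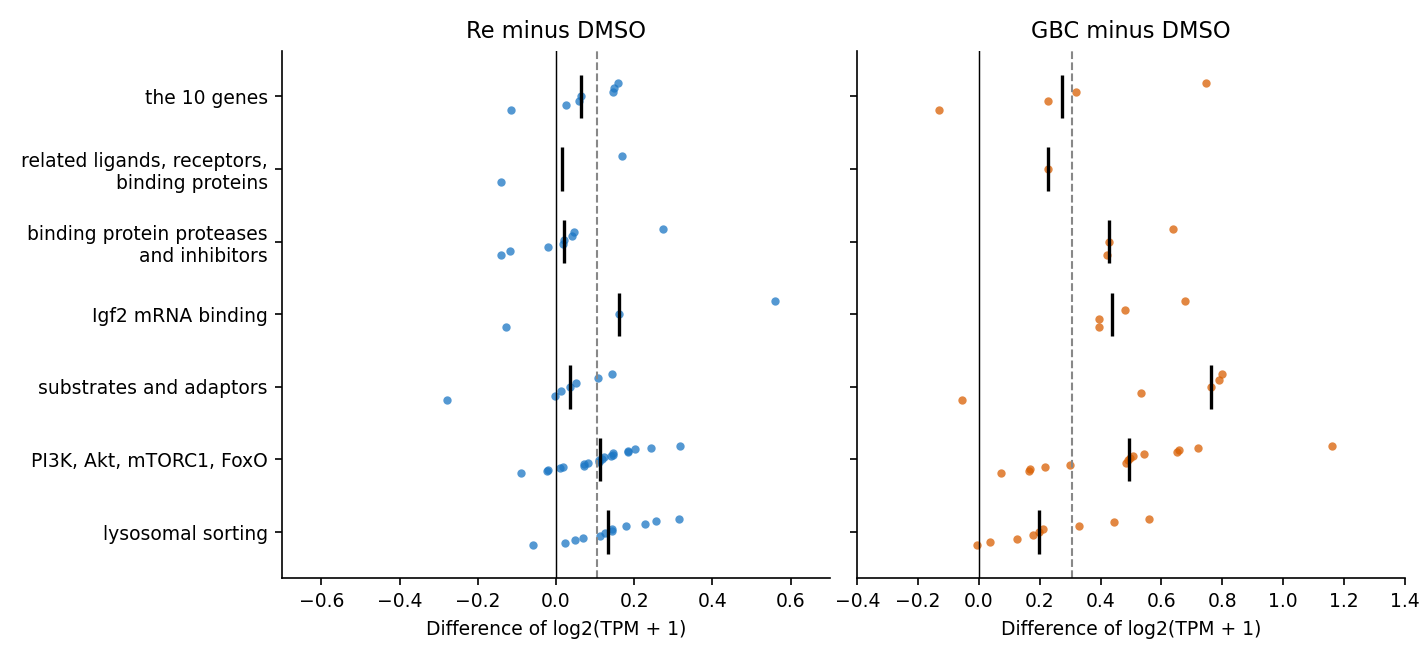
Differences of log2(TPM + 1) for the genes of each list, Re minus DMSO at left (genes averaging 1 TPM or more) and GBC minus DMSO at right (5 TPM or more). Each point is a gene, black bars are list medians, and dashed lines mark the median of all genes, 0.105 and 0.307. No gene at left passed the test, and at right only Rptor, at 1.16, is past 1.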

How the data were processed

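RNA sequencing values of 8 libraries were used. Total RNA came from RNeasy columns and was built into TruSeq RNA libraries, per the labels' protocols. STAR and RSEM appear without versions in the submitters' processing notes, beside the builds GRCh38 and GRCm39; settings and annotation were not stated there. The deposited values are log2(TPM + 1) per gene, which the authors computed; back-transformed they are multiples of 0.01 TPM. Depth is unknown. Each table was analysed apart.

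The Re test was limma 3.58.1 (R 4.3.3; lmFit, eBayes with trend, two-sided, Benjamini-Hochberg over the 11967 genes averaging 1 TPM or more, threshold 0.05), which was also tested on simulated data. GBC was described by the difference, a size of 1 and a mean of at least 5 TPM. Median-of-ratios factors used genes above 0 in every library with a mean of at least 1 TPM. Python 3.11.15, numpy 2.4.6, pandas 2.3.3 and matplotlib 3.10.9 were used. Promoters are RefSeq windows of GRCm38.p6, another build than GRCm39.

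The genes, lists and tests were chosen with earlier results of these data known. Named genes are the 10, from each list the 2 with the smallest p in the Re test and the 2 that differed most with GBC, fixed markers, and the 5 nearest profiles to Igfbp2 and to Igfbp4 (predicted, Rik and pseudogenes left out). Airn, Ins2, Igfbp1, Pappa, Grb10, Krt14, Epcam, Acta1, Pdgfrb, Col1a2 and Cd34 fall outside that rule and were chosen after their values were seen. The same holds for Ly6a, Prrx1, Twist1, Dcn, Lum and Tcf21. A gene that the rule names is not reported here. Alternatives covered pseudocounts, filters, scalings, limma's settings, a replicate block and each library left out.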

Additional observations from a re-analysis of the deposited data

How the results depend on the processing

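Under all 16 alternatives for Re, as listed under the processing, 0 of the genes of the family that were tested were called. Signs were less stable. After median-of-ratios scaling Igf2r was at -0.031, Igfbp2 at -0.083 and Igfbp7 at -0.056; after equal sums Igfbp2 was at -0.038 and Igfbp7 at -0.0080; and with mitochondrially encoded genes left out and equal sums Igf2r was at -0.013, Igfbp2 at -0.063 and Igfbp7 at -0.033. Leaving out 1 library moved Igf2r between -0.070 and 0.19 (lowest without Re replicate 3), Igfbp2 between -0.067 and 0.14 (without Re replicate 1) and Igfbp7 between -0.028 and 0.12 (without DMSO replicate 2); the cause was not tested. Igf1r, Igfbp4, Igfbp5 and Igfbp6 kept their sign wherever they were tested, but their sizes moved with 1 library left out: Igf1r from 0.045 (without Re replicate 3) to 0.23, Igfbp4 from 0.0096 (without Re replicate 2) to 0.31 (without DMSO replicate 3), Igfbp5 from -0.18 to -0.043 and Igfbp6 from 0.073 to 0.21 (both nearest 0 without DMSO replicate 2). Over all genes the number called ran from 0 to 7 with 1 library left out: 4 without DMSO replicate 1, 6 without DMSO replicate 2, 0 without DMSO replicate 3, and 3, 1 and 7 without Re replicates 1, 2 and 3. The titles number the DMSO and Re libraries 1 to 3, while the descriptions number the Re libraries otherwise. Deviations from the group means correlated by 0.163, 0.0771 and 0.0168 over genes in same-numbered libraries, and DMSO replicate 2 correlated more with Re replicate 3 (0.0945), so the numbers were not taken as pairs. With the replicate block 0 of the 7 genes and 0 of all genes were called.

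In the pair no gene of the 10 passed the size of 1 under any of 7 alternatives. Over all genes 346 passed as deposited, 123 after median-of-ratios scaling, 522 at a mean of at least 1 TPM and 556 with no filter; the last 2 counts cover more genes. Signs of Igfbp4 and Igfbp7 depended on the scaling. The unknown depth limits the values under 1 TPM, among them all those of the ligands.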
